A study of Arabidopsis thaliana with 12 samples.

Results

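The 37 loci described here are members of the SAUR (SMALL AUXIN UP RNA) family of Arabidopsis thaliana, taken by locus identifier from a list of named loci, and all 37 were among the 27827 loci measured. By neighbouring locus numbers among the listed loci, 27 of them form 6 tandem groups. SAUR19 to SAUR24 (6 loci) lie on chromosome 5 and SAUR61 to SAUR68 (8 loci) on chromosome 1. Chromosome 4 carries AT4G34760 to AT4G34810 (5 loci, SAUR50, SAUR1, SAUR3, SAUR4 and SAUR5) and AT4G38840 to AT4G38860 (3 loci, SAUR14, SAUR15 and SAUR16). SAUR28, SAUR27 and SAUR26 (AT3G03830 to AT3G03850) are neighbours on chromosome 3, and SAUR6 and SAUR12 (AT2G21210 and AT2G21220) on chromosome 2. The other 10 members have no listed neighbour and are called single loci. SAUR loci outside the list lie within or beside some groups. Others lie beside single loci, such as SAUR70 (AT5G20810) beside SAUR76 (AT5G20820). AT1G29510 is called SAUR67 here, because the gene table gives it the name that AT1G29490 also bears, SAUR68.

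SAUR genes encode small proteins, and many are rapidly induced by auxin, by brassinosteroids or by the PIF transcription factors. Proteins of the SAUR19 clade inhibit PP2C.D phosphatases, which otherwise dephosphorylate and inactivate the proton pumps of the plasma membrane. Active pumps acidify the cell wall, which loosens it, and in dark-grown seedlings this acid growth drives elongation of the hypocotyl.

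RNA was measured in whole seedlings of 4 genotypes in the Col-0 background, with 3 arrays each, lettered A, B and C. Col-0 is the wild type. PMEIox overexpresses an inhibitor of pectin methylesterase, PMEI5 (AT2G31430), and cnu1 and cnu2 are suppressor mutants isolated in PMEIox, so that they carry the overexpression as well. From knowledge of the study, cnu1 is a mutation of the brassinosteroid receptor gene BRI1 and cnu2 of the receptor-like protein gene RLP44. The labels do not name the promoter of the transgene or the number of lines. All seedlings were grown on MS medium lacking sugar, chilled for 48 h, lit for 6 h at 100 µmol of white light per square metre and second, and kept in the dark for 4 days at 22 °C, and per the design text the biological replicates were collected in different weeks. The deposited values are 1 number per locus and array, read as log2 intensity, and a difference of 1 is then a doubling. In RNA of whole seedlings, fewer cells of a type and less RNA per cell cannot be told apart.

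PMEI5 itself stood at 12.53 to 12.69 in the 9 arrays of PMEIox, cnu1 and cnu2. In Col-0 it was 8.19 on array A, 5.05 on array B and 4.49 on array C, so Col-0 A stood apart from the other Col-0 arrays, and each call against Col-0 named below is given with and without it. The 10 reference genes had 0 calls in PMEIox against Col-0 by limma, and 0 of them had an unadjusted p under 0.05. Seed storage genes differed between PMEIox and the other genotypes. All 10 were called higher in PMEIox than in Col-0 (median log2 difference 2.47; all 10, median 2.42, without Col-0 A), and 9 of 10 lower in each suppressor than in PMEIox. Their mean relative to Col-0 was -0.08 to 0.12 over the Col-0 arrays, 2.27 to 2.79 in PMEIox, -0.31 to 0.15 in cnu1 and -0.17 to 0.61 in cnu2. Of 5 root hair genes 3 were called higher in PMEIox than in Col-0 (also 3 without Col-0 A), with list means of -0.14 to 0.09 in Col-0, 0.69 to 1.22 in PMEIox, 0.65 to 0.89 in cnu1 and 0.17 to 0.40 in cnu2. Of 5 root genes 0 were called in PMEIox against Col-0 (0 at an unadjusted p under 0.05), and of 6 light-regulated genes 1 was called, ELIP2, at -1.08 (limma adjusted p = 0.00714; -1.0 without Col-0 A, adjusted p = 0.0323). The root genes averaged 4.71 to 4.92 and the light-regulated genes 6.81 to 7.14 over the genotypes. Of all loci, 2.79% were called higher and 2.46% lower in PMEIox against Col-0. Against PMEIox, 2.9% of all loci were called lower in cnu1 and 1.48% in cnu2. The part of these markers in the SAUR results was not tested.

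In PMEIox, 5 of the 37 SAUR members rose against Col-0 and 0 fell, by limma with Benjamini-Hochberg adjustment over all loci at an adjusted p under 0.05. Over all 27827 loci, 2.79% were called higher and 2.46% lower. The 5 were SAUR9, SAUR10, SAUR14, SAUR1 and SAUR24, of which SAUR9 and SAUR10 are single loci and the other 3 belong to different tandem groups. Without Col-0 A, SAUR9 and SAUR10 kept their calls, whereas SAUR14, SAUR1 and SAUR24 lost theirs. Of the 37 members, 33 had a difference above 0, with a median of 0.37, whereas 49.1% of all loci lay above 0 with a median of 0.00. The members were chosen with earlier results of these data known, so this contrast is a description. Of the 42 other SAUR loci of the table, 26 (61.9%) lay above 0, with a median of 0.08. At an unadjusted p under 0.05 stood 18 members, all of them above 0, and 5146 of all 27827 loci. In cnu1 against PMEIox, 1 member rose and 3 fell, beside 3.54% of all loci called higher and 2.90% lower. In cnu2 against PMEIox, 0 members rose and 1 fell (7 at an unadjusted p under 0.05), beside 1.78% and 1.48% of all loci. Of all 27827 loci, 4674 stood at that unadjusted p in cnu2 against PMEIox. In cnu1 against PMEIox 8 members and 5464 of all loci did so.

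**Figure D1:**
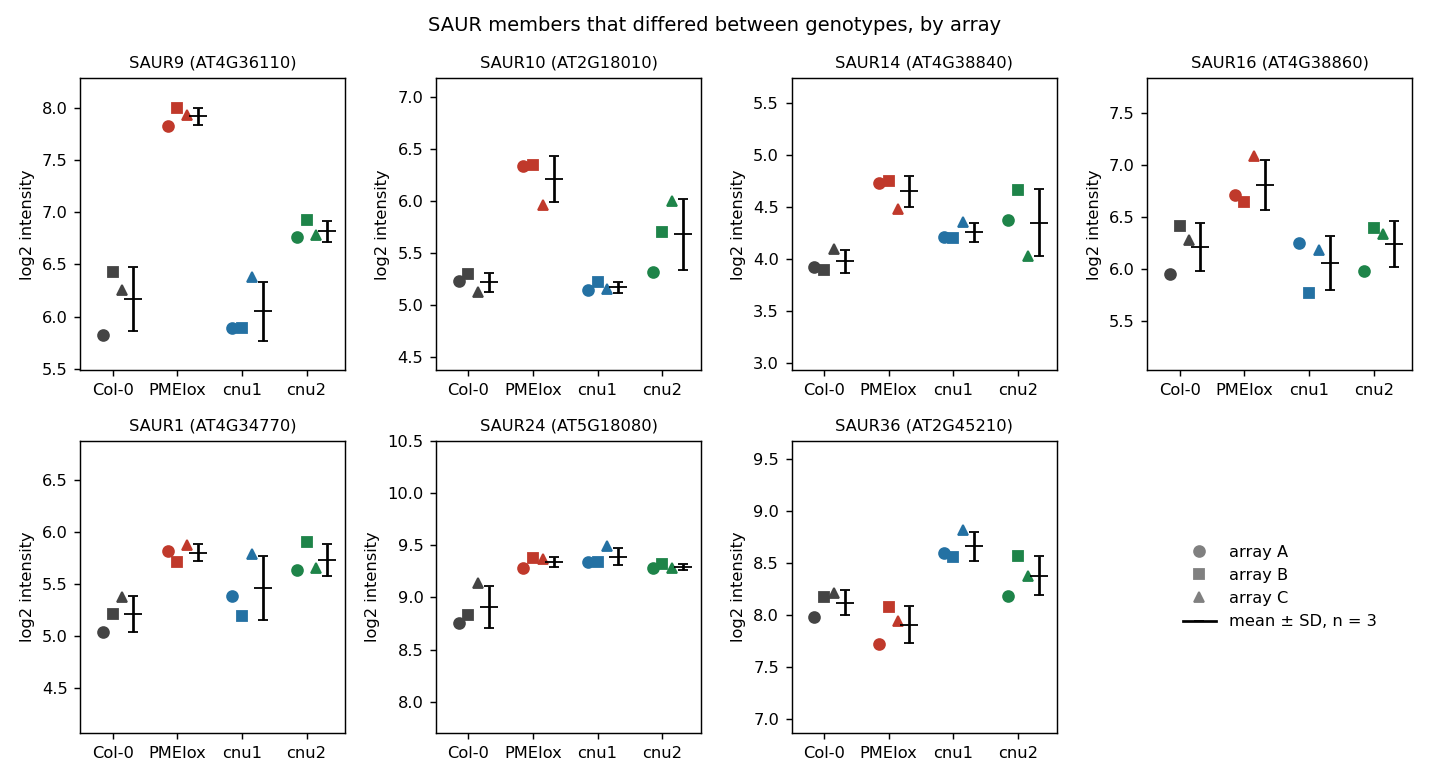
Deposited log2 intensity (vertical axis, with the same span but a different origin in each panel) of the 7 SAUR members called between genotypes, by genotype on the horizontal axis. Each point is 1 array, its symbol the array letter, and the black bar is the mean ± SD of 3 arrays. The 3 PMEIox arrays of SAUR9 lie between 7.83 and 8.0, above all other arrays.

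SAUR9 (AT4G36110, a single locus on chromosome 4) encodes a protein known to bind and inhibit PP2C.D phosphatases. Its log2 value was 5.82, 6.43 and 6.25 in Col-0 A, B and C, and 7.83, 8.0 and 7.93 in PMEIox. It was 5.89, 5.89 and 6.38 in cnu1, and 6.76, 6.93 and 6.78 in cnu2. The PMEIox arrays were the highest of the 12, the cnu2 arrays came next and did not overlap with any other genotype, and the cnu1 and Col-0 arrays overlapped. The rise in PMEIox was 1.75 ± 0.16 (SE, n = 3 arrays a genotype, 3.37-fold, limma adjusted p = 8.15e-05), and 1.58 without Col-0 A (adjusted p = 0.000276). Against PMEIox, SAUR9 fell by 1.87 ± 0.16 in cnu1 (limma adjusted p = 3.06e-05) and by 1.1 ± 0.16 in cnu2 (adjusted p = 0.0035). These 3 calls held in all 20 alternative settings, among them quantile normalization, which could hardly change values that already shared a distribution. Against Col-0, the difference was -0.12 in cnu1 (95% interval -0.47 to 0.24) and 0.66 in cnu2 (0.30 to 1.02, limma adjusted p = 0.165). Between cnu1 and cnu2 it was -0.77 (-1.13 to -0.41, limma adjusted p = 0.073), which missed the threshold and passed it in 5 alternatives.

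SAUR10 (AT2G18010, a single locus on chromosome 2) is known to be induced by auxin and brassinosteroid. Its values were 5.23, 5.30 and 5.13 in Col-0, 6.33, 6.34 and 5.96 in PMEIox, 5.14, 5.22 and 5.15 in cnu1, and 5.32, 5.70 and 6.00 in cnu2. The cnu1 arrays overlapped with Col-0, and the cnu2 arrays spread from just above Col-0 past the lowest PMEIox array. SAUR10 rose by 0.99 ± 0.16 in PMEIox (SE, limma adjusted p = 0.00283; 1.0 without Col-0 A, adjusted p = 0.0119) and fell by 1.04 ± 0.16 in cnu1 against PMEIox (adjusted p = 0.00156). In cnu2 against PMEIox the difference was -0.54 (95% interval -0.88 to -0.20, limma adjusted p = 0.0928), and it was called without cnu2 C and in 2 other alternatives. The difference between cnu1 and cnu2 was -0.51 (-0.85 to -0.17, limma adjusted p = 0.286).

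The AT4G38840 to AT4G38860 group on chromosome 4 holds SAUR14 and SAUR16, known as light-induced in cotyledons, and SAUR15, first described as the auxin-induced gene SAUR-AC1. SAUR14 (AT4G38840) read 3.93, 3.90 and 4.10 in Col-0, 4.73, 4.75 and 4.48 in PMEIox, 4.21, 4.20 and 4.36 in cnu1, and 4.38, 4.66 and 4.03 in cnu2. The PMEIox arrays lay above the Col-0 and cnu1 arrays, and cnu2 spanned most of the range. It rose by 0.68 ± 0.15 in PMEIox (SE, limma adjusted p = 0.0185), but the call was lost without Col-0 A (0.65, adjusted p = 0.0612) and without Col-0 B, PMEIox A or PMEIox B. Against PMEIox, its difference was -0.40 in cnu1 and -0.30 in cnu2, neither of them called.

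SAUR16 (AT4G38860) had values of 5.95, 6.41 and 6.28 in Col-0, 6.71, 6.64 and 7.09 in PMEIox, 6.25, 5.77 and 6.18 in cnu1, and 5.98, 6.39 and 6.34 in cnu2. Only the PMEIox arrays stood apart from the other genotypes. SAUR16 fell by 0.75 ± 0.17 in cnu1 against PMEIox (SE, limma adjusted p = 0.0243), a call lost without cnu1 B, cnu1 C, PMEIox A or PMEIox C, where the highest adjusted p was 0.10. Its differences of 0.60 in PMEIox against Col-0 (limma adjusted p = 0.0735) and -0.58 in cnu2 against PMEIox (adjusted p = 0.104) were not called. SAUR15 (AT4G38850) was at low signal in every genotype, with means of 2.24 to 2.56. Low signal means a genotype mean below 3.21, the 20th percentile of an array.

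SAUR1 (AT4G34770) was the member of the AT4G34760 to AT4G34810 group that was called. It read 5.04, 5.21 and 5.37 in Col-0, 5.82, 5.71 and 5.87 in PMEIox, 5.38, 5.19 and 5.79 in cnu1, and 5.63, 5.90 and 5.65 in cnu2. The Col-0 arrays were below those of PMEIox and cnu2, and cnu1 reached from the Col-0 values to the PMEIox values. The rise in PMEIox was 0.59 ± 0.15 (SE, limma adjusted p = 0.0418), and 0.51 without Col-0 A (adjusted p = 0.131). The call was lost in 9 of 20 alternatives, among them those that leave out Col-0 A, Col-0 B, any 1 PMEIox array, cnu1 A, cnu2 A or cnu2 C. SAUR50 (AT4G34760), known for opposing PP2C-D1 in the apical hook and cotyledons, had means of 7.79 in Col-0, 8.17 in PMEIox, 8.31 in cnu1 and 7.94 in cnu2 (SD 0.14, 0.13, 0.22 and 0.13). Its differences of 0.38 in PMEIox and 0.53 in cnu1 against Col-0 were not called (limma adjusted p = 0.125 and 0.0984). SAUR4 differed by 0.02 between PMEIox and Col-0, and SAUR3 (low signal in all 4 genotypes) and SAUR5 (low in 1) by 0.17 and 0.24.

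**Figure D2:**
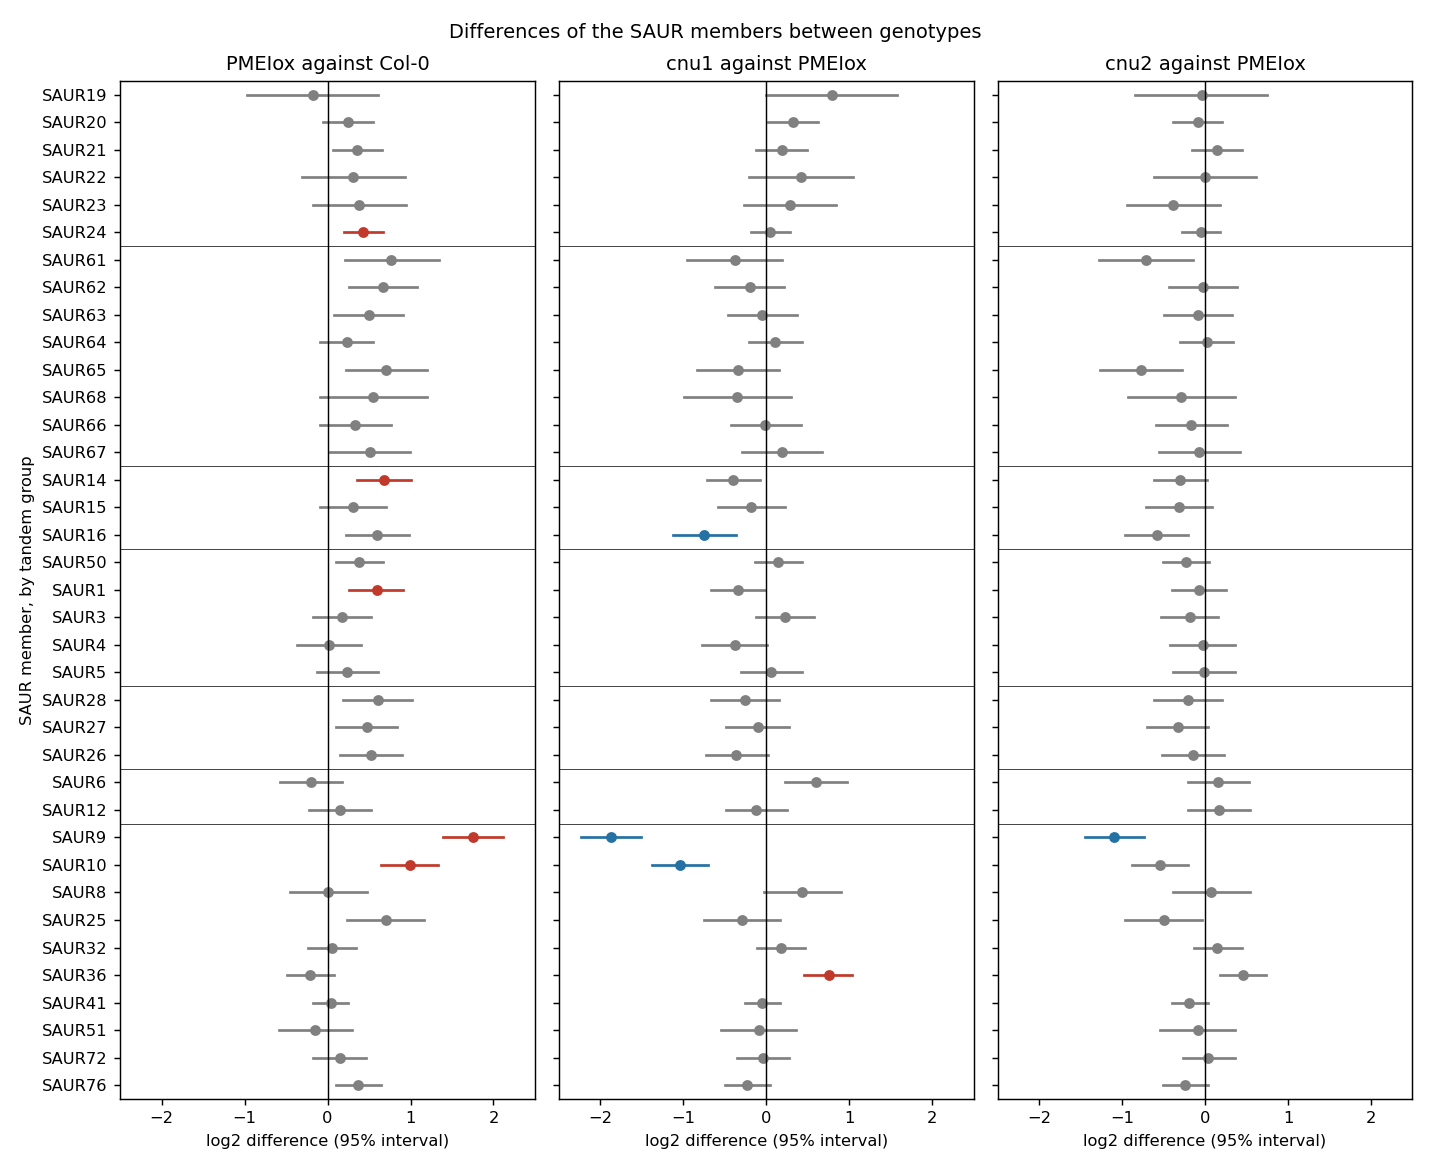
Log2 difference (horizontal axis) with its 95% interval from limma for each of the 37 SAUR members, listed by tandem group on the vertical axis, in PMEIox against Col-0, cnu1 against PMEIox and cnu2 against PMEIox. Red marks members called higher, blue those called lower and grey those not called. In the left panel 33 of 37 points lie above 0, and SAUR9 is the farthest from 0 in every panel.

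Within the SAUR19 to SAUR24 group on chromosome 5, the clade whose action on PP2C.D phosphatases is described best, only SAUR24 was called. SAUR24 (AT5G18080) stood at 8.75, 8.83 and 9.14 in Col-0, 9.28, 9.38 and 9.37 in PMEIox, 9.34, 9.34 and 9.49 in cnu1, and 9.28, 9.32 and 9.28 in cnu2. All 9 arrays that carry the overexpression lay above the 3 Col-0 arrays. The rise in PMEIox was 0.43 ± 0.11 (SE, limma adjusted p = 0.0349), and without Col-0 A it was 0.36 (adjusted p = 0.117). The call was lost in 9 of 20 alternatives, among them those that leave out Col-0 A, Col-0 B, any 1 PMEIox array, cnu1 A or cnu2 A. Against PMEIox, SAUR24 differed by 0.04 in cnu1 and -0.05 in cnu2, not called.

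The group as a whole was highest in cnu1. Averaged over its 6 loci and set against the Col-0 mean, the log2 level was -0.25, 0.20 and 0.06 in Col-0, 0.12, 0.48 and 0.18 in PMEIox, 0.66, 0.34 and 0.81 in cnu1, and 0.23, 0.31 and 0.03 in cnu2. Arrays cnu1 A and cnu1 C lay above all others, while cnu1 B lay below PMEIox B. In cnu1 against Col-0 all 6 loci had differences above 0, from 0.48 to 0.73, and 5 had an unadjusted p under 0.05, but 0 were called by limma. The lowest adjusted p was that of SAUR24 (0.48, adjusted p = 0.0755), followed by SAUR20 (0.57, 0.0921) and SAUR21 (0.55, 0.107). SAUR24, SAUR21 and SAUR20 were called after the lowest 40% of loci were left out. Against PMEIox and against cnu2, the cnu1 medians of the 6 loci were 0.30 and 0.41, with 0 calls and 1 and 3 loci at an unadjusted p under 0.05. SAUR22 was at low signal in 3 genotypes and SAUR23 in 2. SAUR19 varied widely within genotypes, with SDs of 0.41 to 0.68.

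**Figure D3:**
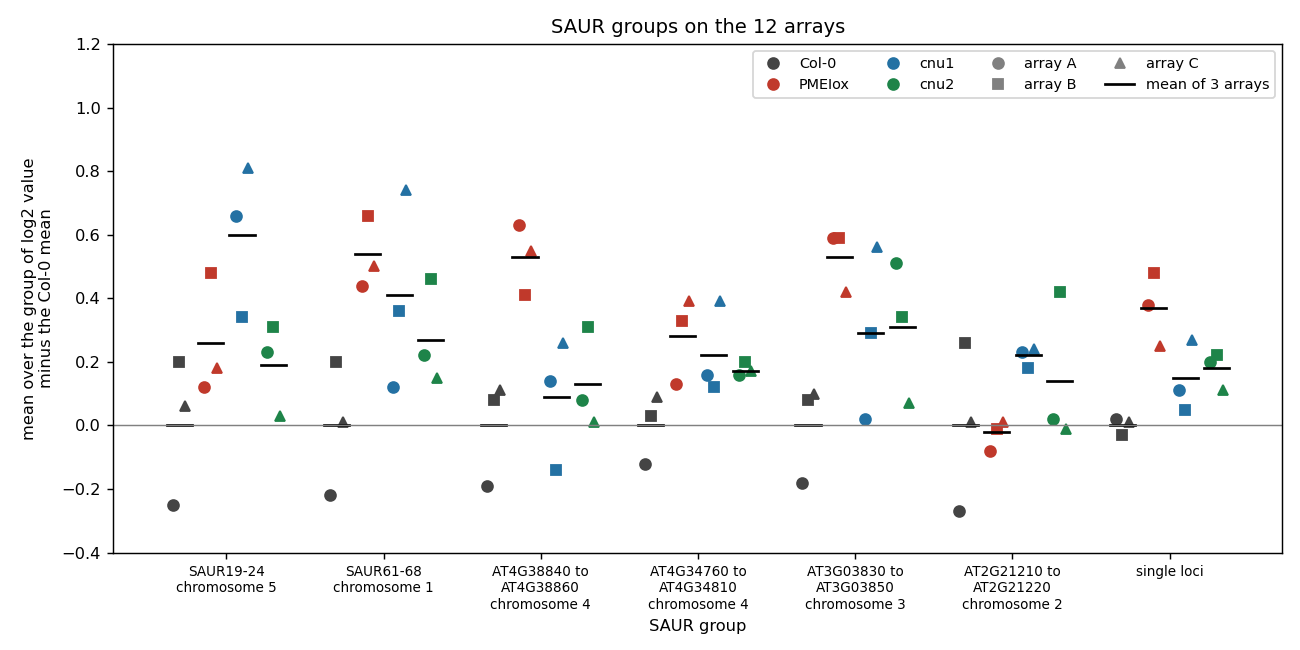
Mean over the loci of each SAUR group of the log2 value minus that locus's Col-0 mean (vertical axis), for the 6 tandem groups and the single loci (horizontal axis). Each point is 1 array, colour gives the genotype, the symbol gives the array letter, and bars are means of 3 arrays. The chromosome 5 group is highest in cnu1 (0.34 to 0.81) and the chromosome 1 group reaches 0.44 to 0.66 in PMEIox.

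The SAUR61 to SAUR68 group on chromosome 1 includes SAUR63, known to promote elongation of hypocotyls and stamen filaments. Its 8 loci all had differences above 0 in PMEIox against Col-0, from 0.23 to 0.77 with a median of 0.53. None of the 8 was called by limma, and 5 had an unadjusted p under 0.05. The mean over the group was -0.22, 0.20 and 0.01 in Col-0, 0.44, 0.66 and 0.50 in PMEIox, 0.12, 0.36 and 0.74 in cnu1, and 0.22, 0.46 and 0.15 in cnu2. PMEIox did not overlap with Col-0, whereas each suppressor overlapped with both. SAUR62 (AT1G29430) came closest to a call, with 4.56, 4.42 and 4.47 in Col-0 and 4.98, 5.23 and 5.25 in PMEIox (0.67, limma adjusted p = 0.0632), and it was called in 6 alternatives. The widest differences in the group, 0.77 for SAUR61 and 0.71 for SAUR65, came from loci at low signal in all 4 genotypes. Against PMEIox the group medians were -0.13 in cnu1 and -0.13 in cnu2, with 0 calls by limma and 0 and 2 loci at an unadjusted p under 0.05. Within SAUR19 to SAUR24, and likewise within SAUR61 to SAUR68, the loci are known as close copies. Signal shared between such copies on an array cannot be told apart here.

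The chromosome 3 group, known for a part in growth at raised temperature, showed the same direction in its 3 loci. SAUR28, SAUR27 and SAUR26 differed by 0.61, 0.47 and 0.52 between PMEIox and Col-0, with limma adjusted p-values of 0.0945, 0.155 and 0.116. The group means were 0.42 to 0.59 in PMEIox, 0.02 to 0.56 in cnu1 and 0.07 to 0.51 in cnu2, against -0.18 to 0.10 in Col-0. SAUR27 was at low signal in 2 genotypes. On chromosome 2, SAUR6 and SAUR12 lay on either side of 0 in PMEIox against Col-0, at -0.20 and 0.15. SAUR6 (AT2G21210) was 0.60 higher in cnu1 than in PMEIox without passing the test (limma adjusted p = 0.0569), with 3.66, 4.01 and 3.70 in PMEIox and 4.21, 4.41 and 4.56 in cnu1. It was called without cnu2 B and in 2 other alternatives.

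SAUR36 (AT2G45210), also known as the senescence-associated gene SAG201, was the member that rose in cnu1 against PMEIox. It read 7.98, 8.17 and 8.21 in Col-0, 7.72, 8.08 and 7.94 in PMEIox, 8.60, 8.56 and 8.82 in cnu1, and 8.18, 8.57 and 8.38 in cnu2. The cnu1 arrays lay above those of Col-0 and PMEIox, which overlapped. The rise was 0.75 ± 0.13 (SE, limma adjusted p = 0.00421) and held without each array in turn. In cnu2 against PMEIox the difference was 0.46 (limma adjusted p = 0.0831) and in cnu1 against Col-0 it was 0.54 (adjusted p = 0.0916), neither called. The difference between PMEIox and Col-0 was -0.21.

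Of the remaining single loci, none was called in any comparison. SAUR25 and SAUR76, both at low signal in all 4 genotypes, differed by 0.70 and 0.37 between PMEIox and Col-0 (limma adjusted p = 0.084 and 0.119). SAUR41 and SAUR32, known for hypocotyl elongation and for the apical hook, differed by 0.04 and 0.05. SAUR72, whose protein is known to inhibit PP2C.D phosphatases, differed by 0.15, SAUR8 by 0.01 and SAUR51 by -0.15. In all, 6 members were at low signal in all 4 genotypes and 27 in none.

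Against Col-0, neither suppressor had a called SAUR member. In cnu1 against Col-0 the counts by limma were 0 higher and 0 lower, with 13 members at an unadjusted p under 0.05, beside 0.359% and 0.262% of all loci called. In cnu2 against Col-0 they were 0 and 0, with 8 at an unadjusted p under 0.05, beside 0.108% and 0.0791%. In cnu1 against cnu2 they were 0 and 0, with 9 at an unadjusted p under 0.05, beside 0.377% and 0.190%. Of all 27827 loci, 3869, 3155 and 2379 had an unadjusted p under 0.05 in these comparisons, in this order. The median over the members was 0.35 in cnu1 and 0.20 in cnu2 against Col-0, where 31 and 29 of 37 lay above 0. PMEIox, cnu1 and cnu2 were all compared with the same Col-0 arrays. The cnu1 median against Col-0 fell to 0.23 without cnu1 C and 0.26 without Col-0 A. Without Col-0 A, the median of PMEIox against Col-0 was 0.28 and that of cnu2 against Col-0 was 0.12.

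Many members also moved together within genotypes. On cnu1 C, 32 of 37 members lay above their own cnu1 mean, and on Col-0 A only 6 of 37 lay above their Col-0 mean, whereas 48.8% to 51.4% of all loci did so on each of the 12 arrays. The mean deviation was 0.20 on cnu1 C and -0.14 on Col-0 A. On the other arrays, 9 to 28 of 37 members lay above their genotype mean. Array B had 24 above in Col-0, 26 in PMEIox and 28 in cnu2, but 9 in cnu1. A shift shared by week of harvest was not tested, as the labels do not tie letters to weeks. Across the 12 arrays, deviations of pairs of members from their genotype means had a median Pearson correlation of 0.44 in the chromosome 1 group (28 pairs), 0.41 in the chromosome 5 group (15 pairs), 0.20 in the AT4G34760 to AT4G34810 group (10 pairs) and 0.25 between different groups (606 pairs). Over all 666 pairs, the correlation ran from -0.81 to 0.92 and was above 0 in 489. Among the single loci its median was 0.17, and 26 of 45 pairs were above 0. The pairs share the arrays and may share probe signal, so these values are descriptions.

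**Figure D4:**
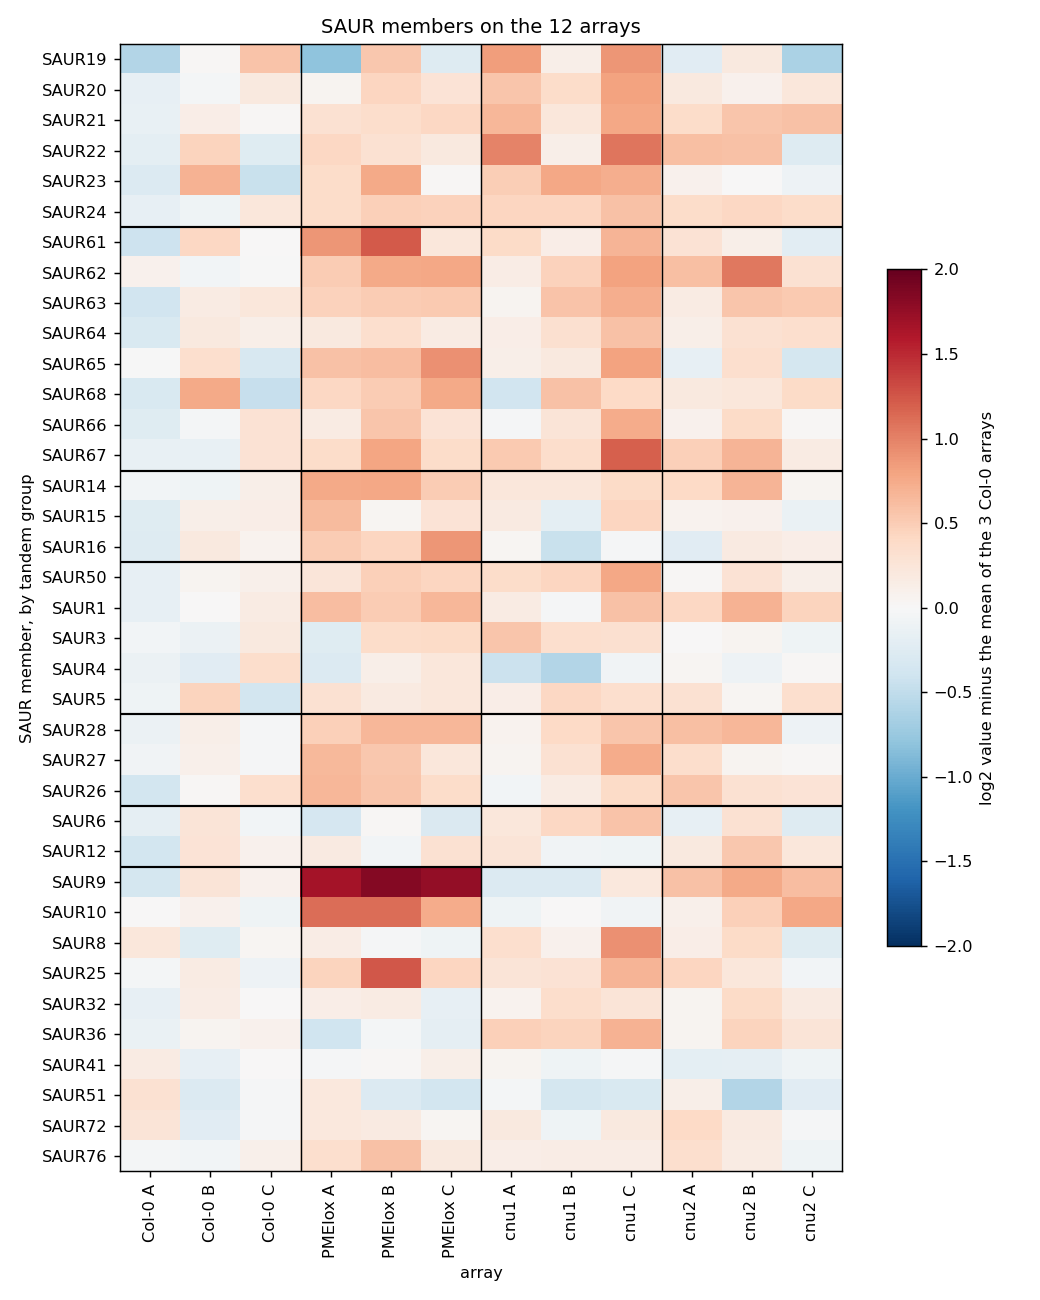
Log2 value minus the mean of the 3 Col-0 arrays (colour, red above and blue below) for the 37 SAUR members (vertical axis, by tandem group) on the 12 arrays (horizontal axis, by genotype and array letter). SAUR9 is darkest in PMEIox, the chromosome 5 group is reddest on cnu1 A and cnu1 C, and the Col-0 A column is mostly blue.

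Among the 42 other SAUR loci of the table, changes ran both ways. In PMEIox against Col-0, 4 rose and 4 fell (median 0.08), in cnu1 against PMEIox 4 rose and 6 fell, and in cnu2 against PMEIox 4 rose and 3 fell. Of all loci, 2.79% were called higher and 2.46% lower in the first comparison. The shares were 3.54% and 2.9% in the second, and 1.78% and 1.48% in the third. SAUR17 (AT4G09530), whose protein is known to counter SAUR50 on PP2C-D1 in the apical hook, read 6.65, 6.13 and 6.96 in Col-0, 8.59, 8.38 and 8.88 in PMEIox, 6.20, 5.82 and 5.83 in cnu1, and 7.21, 6.88 and 7.72 in cnu2. PMEIox was highest and cnu2 lay mostly between PMEIox and Col-0, as for SAUR9. It rose by 2.04 ± 0.24 in PMEIox (limma adjusted p = 0.000376; 2.07 without Col-0 A, adjusted p = 0.0020), and against PMEIox fell by 2.67 in cnu1 (adjusted p = 3.46e-05) and by 1.35 in cnu2 (adjusted p = 0.00976).

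SAUR37 (AT4G31320) rose by 1.09 in PMEIox (limma adjusted p = 0.000268; 1.08 without Col-0 A, adjusted p = 0.0019). Against PMEIox it fell by 0.82 in cnu1 and 1.04 in cnu2 (limma adjusted p = 0.00152 and 0.000738). SAUR57 (AT3G53250) fell by 1.86 in PMEIox to a low-signal mean of 2.75 (limma adjusted p = 0.000129; -1.97 without Col-0 A, adjusted p = 0.000496). Against PMEIox it rose by 2.45 in cnu1 and 1.41 in cnu2 (limma adjusted p = 1.08e-05 and 0.00172). SAUR55 (AT5G50760) fell by 0.62 in PMEIox against Col-0 (limma adjusted p = 0.00406; -0.66 without Col-0 A, adjusted p = 0.0116) and rose by 0.82 in cnu1 and 0.70 in cnu2 against PMEIox (limma adjusted p = 0.000474 and 0.00327). SAUR46 (AT2G37030) differed between the suppressors. Its values were 4.66, 4.80 and 4.54 in Col-0, 3.32, 3.40 and 3.71 in PMEIox, 4.89, 5.09 and 4.93 in cnu1, and 3.53, 3.53 and 3.70 in cnu2. The cnu2 arrays overlapped with PMEIox, and the cnu1 arrays lay above Col-0. SAUR46 fell by 1.19 in PMEIox (limma adjusted p = 0.000124; -1.19 without Col-0 A, adjusted p = 0.000897), rose by 1.49 in cnu1 against PMEIox (adjusted p = 1.55e-05) and was 1.38 higher in cnu1 than in cnu2 (adjusted p = 0.000529). In cnu2 against Col-0, SAUR46 fell by 1.08 (limma adjusted p = 0.00584; -1.08 without Col-0 A, adjusted p = 0.0346). SAUR29 (AT3G03820), singled out after its values were seen because it neighbours the chromosome 3 group, was 0.56 higher in PMEIox (limma adjusted p = 0.0378), a call lost without Col-0 A (0.54, adjusted p = 0.0957) and in 9 other alternatives. Named afterwards for the same reason, SAUR73, SAUR2, SAUR49, SAUR13 and SAUR7 lie within or beside tandem groups. They differed by 0.15, -0.22, 0.11, -0.03 and 0.13 in PMEIox against Col-0, and none of these was called. Also named after their values were seen, to complete the calls in PMEIox against Col-0, SAUR44 rose by 1.05 (limma adjusted p = 0.00457; 1.08 without Col-0 A, adjusted p = 0.015), and SAUR30 differed by -0.44 (adjusted p = 0.0357), a call lost without Col-0 A (-0.40, adjusted p = 0.111) and in 9 other alternatives.

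The partners of SAUR proteins showed changes in single genes. Of 9 PP2C.D phosphatase genes, 1 rose and 1 fell in PMEIox, beside 2.79% and 2.46% of all loci. PP2C.D1 (AT5G02760) read 9.07, 8.93 and 9.18 in Col-0, 10.18, 10.02 and 10.06 in PMEIox, 9.54, 9.58 and 9.41 in cnu1, and 9.74, 9.76 and 9.78 in cnu2. The 4 genotypes did not overlap. It rose by 1.03 ± 0.10 in PMEIox (limma adjusted p = 7.45e-05; 1.03 without Col-0 A, adjusted p = 0.000567) and fell by 0.58 in cnu1 against PMEIox (adjusted p = 0.00298). In cnu2 against Col-0 PP2C.D1 was 0.70 higher (limma adjusted p = 0.0166), a call lost without Col-0 A (0.71, adjusted p = 0.0692) and in 6 other alternatives. PP2C.D7 (AT5G66080) fell by 0.72 in PMEIox (limma adjusted p = 0.000766; -0.72 without Col-0 A, adjusted p = 0.00436) and rose by 1.04 in cnu1 and 0.65 in cnu2 against PMEIox (adjusted p = 3.95e-05 and 0.00284).

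Of 11 plasma membrane proton pump genes, 1 was called in PMEIox, AHA4, at -0.58 (limma adjusted p = 0.0453), and the call was lost without Col-0 A (-0.65, adjusted p = 0.0573) and in 13 other alternatives. Of all loci, 2.46% were called lower in PMEIox. AHA1 and AHA2, the main pumps of seedlings, differed by -0.16 and 0.22 and were not called (limma adjusted p = 0.364 and 0.265). Of 16 auxin receptor and transcription factor genes, PIF4, which activates growth genes in darkness and warmth, fell by 0.69 in PMEIox (limma adjusted p = 0.00835; -0.72 without Col-0 A, adjusted p = 0.0234). Against PMEIox it rose by 0.76 in cnu1 and 0.62 in cnu2 (limma adjusted p = 0.00382 and 0.026), and the cnu2 call was lost in 7 of 20 alternatives, among them those that leave out any 1 PMEIox array, cnu2 B or cnu2 C. ARF5, an auxin response factor, rose by 0.68 in cnu1 against PMEIox (limma adjusted p = 0.00147), and PIF3 fell by 0.36 (adjusted p = 0.041), a call lost in 13 of 20 alternatives.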

How the data were processed

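The deposited table gives 1 value per locus and array for 12 arrays, made by the authors from biotinylated cRNA on Affymetrix arrays, per the labels. The values (0.785 to 13.9) were read as log2 intensities. The log base, array type, background correction, probe summary, software and genome build are not given in the sources used here. The sorted values of the 12 arrays were identical, with a median of 5.47, so the deposited log2 values had been given a common distribution and were used unchanged. The table holds no detection calls, and the number of arrays limits the precision.

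Groups and replicate letters came from the sample titles. Differences were fitted for all 27827 loci with limma 3.58.1 (lmFit and eBayes, R 4.3.3, 8 residual and 4.06 prior degrees of freedom), two-sided, with Benjamini-Hochberg adjustment over all loci and a threshold of 0.05, in 6 comparisons. A positive difference means a higher value in the genotype named first. The p-values set a difference against the spread between arrays within genotypes. That spread was pooled over the genotypes and moderated by limma with all loci. The fit was tested on simulated data with known differences. The outcome is not given here, and that test does not bear on the uncalled members. Symbols came from a RefSeq gene table (assembly TAIR10.1), which matched 27241 loci and all 37 members. The other SAUR loci are those the table names SAUR with a number, except 1 locus that shares a member's name.

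The members and lists were chosen with earlier results of these data known. Per-array values are given for called members, and up to 4 called loci with the smallest adjusted p are named from each companion list in PMEIox against Col-0 and in each suppressor against PMEIox. Loci beyond this are said to be so, and uncalled members were named to account for the family. The alternatives were quantile normalization, centring on 10 reference genes, leaving out the lowest 40% of loci, eBayes with trend and robust, and array weights. The others were the 2 genotypes alone, a replicate block with the letter as a fixed term, a minimum fold of 2, and leaving out each array. As the sorted values were already identical, quantile normalization could hardly change a value and is no check of a call. The minimum fold only sets a further threshold on the reported fit. The package statmod 1.5.0 was loaded with limma. Sequences and promoter motifs were not analysed here. Summaries used Python 3.11.15, with matplotlib 3.10.9 for plotting.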

Additional observations from a re-analysis of the deposited data

Results flagged for a closer look

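No SAUR member was called between cnu1 and cnu2, but 4 loci of the wider lists were, by limma on the difference between the suppressors. These lists hold 42 other SAUR loci, 9 PP2C.D phosphatases, 11 proton pumps and 16 auxin receptors and transcription factors. Of all loci, 0.377% were called higher in cnu1 than in cnu2 and 0.19% lower. SAUR46 was 1.38 higher in cnu1 (adjusted p = 0.000529), and this held in all 19 alternatives that could be run. SAUR57 was 1.05 higher in cnu1 (limma adjusted p = 0.0335), a call lost in 9 of 19 alternatives. For SAUR17 the difference was -1.32 (limma adjusted p = 0.0341), lost in 7 of 20. ARF5 was 0.53 higher in cnu1 (limma adjusted p = 0.0416), lost in 11 of 20.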

How the results depend on the processing

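None of the 10 calls among the 222 pairs of member and comparison turned sign in the alternatives run, 20 for each but SAUR14 in PMEIox against Col-0, which had 19 because the filter on the lowest 40% of loci removes it. SAUR9 in PMEIox against Col-0 and in each suppressor against PMEIox, and SAUR10 in cnu1 against PMEIox, kept their calls in all 20, and SAUR10 in PMEIox against Col-0 and SAUR36 in cnu1 against PMEIox lost theirs only with a minimum fold of 2. Of the uncalled pairs, 18 were called in at least 1 alternative and 59 turned sign in at least 1 without being called. Members called higher in PMEIox against Col-0 numbered 5 in the reported fit, 8 with trend and robust, 1 with a minimum fold of 2, and 2 to 6 when 1 array was left out, with 2 without Col-0 A, Col-0 B, PMEIox A or PMEIox B. In cnu1 against PMEIox, members called higher numbered 1 as reported, 2 with the 2 genotypes alone, 2 with the replicate block, 0 with a minimum fold of 2 (3 higher at an unadjusted p under 0.05 in the reported limma fit), and 1 to 2 when 1 array was left out, with 2 without cnu2 B. In cnu2 against PMEIox, 1 was called higher without the lowest 40% of loci, with trend and robust and with the replicate block, against 0 as reported, and 2 were called lower without the lowest 40%, with trend and robust and with array weights, against 1, with 1 to 2 when 1 array was left out (2 without cnu2 C). In cnu1 against Col-0, 5 were called higher without the lowest 40% and 5 with trend and robust, 1 with array weights, and 0 to 1 when 1 array was left out (1 without cnu1 B or Col-0 C). In cnu2 against Col-0, 1 was called higher with trend and robust. In cnu1 against cnu2, 1 was called lower without the lowest 40%, with trend and robust and with array weights, and 0 to 1 when 1 array was left out (1 without cnu1 C or Col-0 A). The cause was not tested. The share of all loci called in each alternative is not given here, so these changes in count are no result about the members. Leaving out the lowest 40% of loci leaves 16696 loci and 21 of the 37 members. Medians over the members kept their direction in every alternative. Quantile normalization, counted among the alternatives, could hardly change values that already shared a distribution. Same-lettered arrays correlated between -0.137 and 0.19 in their deviations from the genotype means (6 of 18 pairs over 0.1), and the labels do not tie the letters to the weeks of harvest, so the letters were not taken as pairing the arrays. As a hint from the data, the 9 same-lettered pairs among Col-0, PMEIox and cnu2 lay between 0.072 and 0.19 and the 18 pairs of different letters at 0.035 or below, whereas same-lettered pairs with cnu1 ran from -0.137 to 0.11. With the replicate block SAUR63 in PMEIox against Col-0, SAUR6 in cnu1 against PMEIox and SAUR36 in cnu2 against PMEIox were gained: 6 members were called higher in PMEIox against Col-0, and 3 lower in cnu1 and 1 lower in cnu2 against PMEIox.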
